A study of Mus musculus with 8 samples.

Results

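The Toll-like receptors are a family of innate immune receptors, and 10 mouse members (Tlr1 to Tlr9 and Tlr13) were followed here, chosen by gene symbol from a table of 56748 genes. All 10 were abundant enough to be tested among the 21588 genes that passed a filter on low counts. The receptors bind molecules of microbes and of damaged cells and signal through the adaptors MyD88 and TRIF to NF-kappaB and interferon regulatory factors. Surface receptors (Tlr1, Tlr2, Tlr4, Tlr5, Tlr6) sense bacterial lipoproteins, lipopolysaccharide and flagellin, whereas endosomal receptors (Tlr3, Tlr7, Tlr8, Tlr9, Tlr13) sense nucleic acids after their delivery to acidic compartments. In brain they are made mainly by microglia, with Tlr3 made by other cell types as well.

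Polyadenylated RNA was sequenced from pulverised frozen forebrain of mice aged 18 months, with 4 libraries of TgCRND8 transgenics (Tg), which overexpress the amyloid precursor protein APP, and 4 libraries of non-transgenic litter mates (NTg). TgCRND8 is known as a line that carries a human APP transgene with familial Alzheimer mutations, driven by a prion protein promoter, and that develops amyloid plaques. Every library carries the same batch value, so no batch could be separated, and no treatment is given in either genotype. Whether each library is a separate animal is not stated, so p-values measure the spread between these libraries. All fold changes are Tg over NTg.

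Library totals were 57129090 to 65242741 counts. App, which reads of the transgene can reach in part, averaged 2851 ± 213 CPM (counts relative to the scaled library total) in Tg and 1488 ± 98.4 CPM in NTg (SD, n = 4 each), with no overlap (edgeR adjusted p = 0.00146). The 11 microglial markers examined were all detected and all had higher means in Tg, with a median log2 fold change of 0.62, and edgeR called 0 of them. Sall1 was nearly level (log2 fold change 0.05), and 6 of the 11 did not overlap, beside 2.62% of all genes tested in that direction. Their summed level was 374 to 579 CPM in Tg and 282 to 366 CPM in NTg, and 374 CPM, in Tg replicate 1, lay far below the other Tg libraries at 532 to 579 CPM. NTg replicate 1 stood apart in B cell markers. Ms4a1 was at 0.115 to 0.287 CPM in Tg, against 3.53 CPM in NTg replicate 1 and 0.0176 to 0.231 CPM in the other NTg libraries. Cd79a was at 0.274 to 0.533 CPM in Tg, against 1.82 CPM in NTg replicate 1 and 0.159 to 0.480 CPM in the other NTg libraries, and Cd79b at 0.154 to 0.513 CPM in Tg, against 2.11 CPM and 0.0529 to 0.533 CPM in the same NTg libraries. Red blood cell markers also set Tg replicate 1 apart, with 3003 CPM summed there, 448 to 732 CPM in Tg replicates 2 to 4 and 1282 to 3271 CPM in NTg. The summed level of 6 choroid plexus markers was lower in every Tg library, at 308 to 572 CPM in Tg and 600 to 914 CPM in NTg, although 2 of the 6 overlapped singly. All 5 endothelial markers had lower means in Tg, with sums of 87.2 to 127 CPM in Tg and 124 to 152 CPM in NTg, and 1 of them, Cldn5, did not overlap. Of all 21588 genes tested, 341 lay lower in every Tg library than in every NTg library. The part of these cell types in the results was not tested.

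Toll-like receptor transcripts were more abundant in Tg forebrain for most of the family, by less than the threshold of edgeR's quasi-likelihood test over all genes. Of the 10 members, 9 had a positive log2 fold change and 1, Tlr5, a negative one, though Tlr5 turned positive (0.02) without Tg replicate 1 and Tlr6 negative (-0.023) with limma-voom. The median was 0.52, beside -0.0024 for all genes tested. At an adjusted p of 0.05 edgeR called 0 of 10, where 0.0139% of all genes tested were called in either direction and 0.00926% as higher. At an unadjusted p under 0.05, 6 members were higher (Tlr1, Tlr2, Tlr4, Tlr7, Tlr9 and Tlr13), that is 6 of 10 where 4.68% of all genes tested were higher by this measure. DESeq2 placed 3 of 10 higher at an adjusted p of 0.05 (Tlr2, Tlr7 and Tlr13), against 1.33% of all genes tested, and gave Tlr8 no adjusted p. The same 3 passed edgeR without Tg replicate 1, which removes the lowest Tg value of each, and 1.26% of all genes were called higher in that comparison. With any other single library left out, edgeR called none of the members. In bulk tissue, more microglia and more RNA per microglial cell cannot be told apart.

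**Figure D1:**
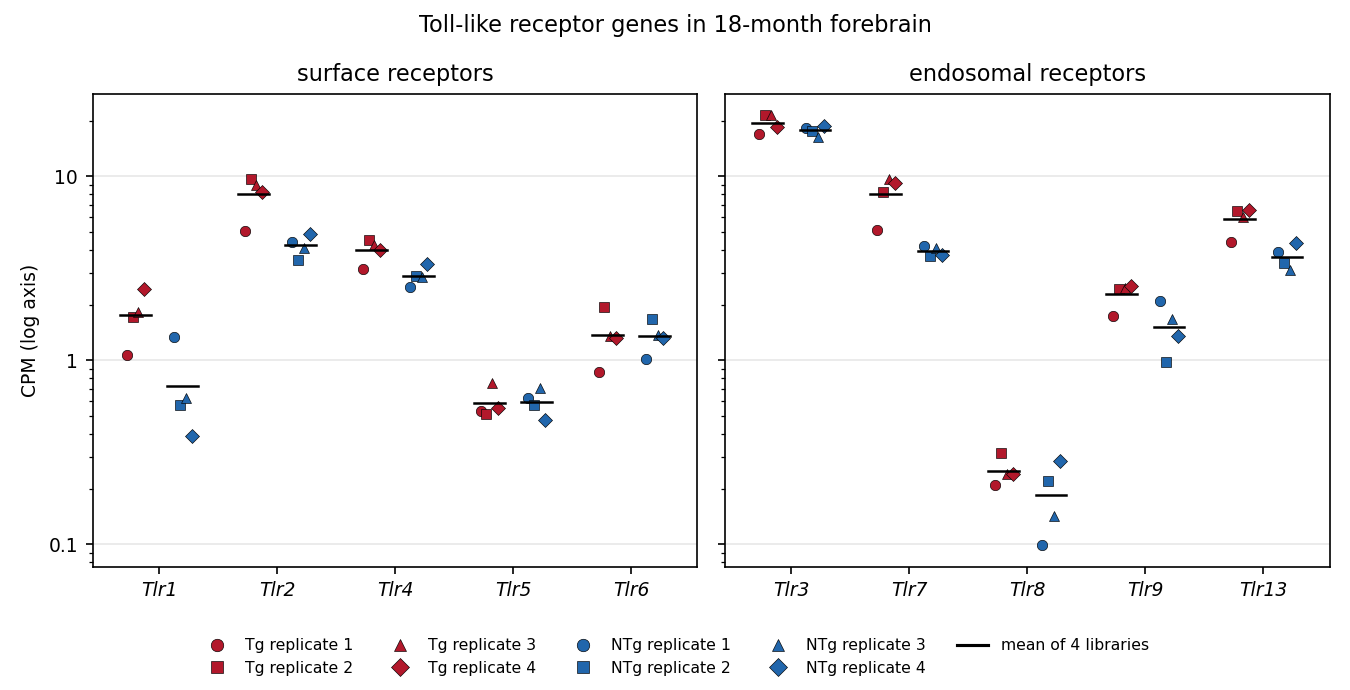
Abundance of each Toll-like receptor gene in CPM (log axis) in the 4 Tg (red) and 4 NTg (blue) libraries, with marker shapes for the replicate and a bar for the mean. Tlr2, Tlr7 and Tlr13 show no overlap between genotypes, and Tg replicate 1 (red circle) is the lowest Tg library for every member except Tlr5.

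Per kilobase of annotated exon, Tlr3 was the most abundant member in both genotypes, at 3.76 ± 0.444 CPM per kb in Tg and 3.42 ± 0.195 CPM per kb in NTg (SD, n = 4 each). Tlr2 came next with 2.65 ± 0.679 CPM per kb in Tg and 1.40 ± 0.187 CPM per kb in NTg, followed by Tlr7 with 1.97 ± 0.503 CPM per kb in Tg and 0.960 ± 0.0611 CPM per kb in NTg. Tlr13 followed, at 1.37 and 0.852 CPM per kb in Tg and NTg. Below them Tlr4 and Tlr9 held the next places in both genotypes, with means of 0.714 and 0.661 CPM per kb in Tg and 0.520 and 0.439 CPM per kb in NTg. Tlr1 preceded Tlr6 in Tg (0.530 and 0.369 CPM per kb), while Tlr6 preceded Tlr1 in NTg (0.362 and 0.218 CPM per kb). Tlr5 and Tlr8 were scarcest, at 0.122 and 0.0700 CPM per kb in Tg and 0.125 and 0.0520 CPM per kb in NTg. In NTg the libraries of neighbours in this order overlapped for Tlr7 and Tlr13 and for each step from Tlr4 down to Tlr5, so those places are not separated by the spread. In Tg they overlapped from Tlr2 to Tlr13 and from Tlr4 to Tlr6.

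Among the endosomal receptors, Tlr7, the sensor of single-stranded RNA, had the smallest p of the family. It stood at 5.09, 8.24, 9.65 and 9.17 CPM in Tg replicates 1 to 4, against 4.16, 3.67, 4.10 and 3.74 CPM in NTg replicates 1 to 4. The genotypes did not overlap, as was the case in the same direction for 2.62% of all genes tested, and the NTg libraries lay close together. The log2 fold change was 1.03 (SE 0.18, 2.05-fold; edgeR adjusted p = 0.107). Without Tg replicate 1, its lowest Tg library, the log2 fold change was 1.202 (SE 0.10, edgeR adjusted p = 0.000809). Leaving out the lowest Tg value favours a larger estimate, so this is given as a description alone.

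Tlr13, which in the mouse recognises bacterial ribosomal RNA and has no human counterpart, measured 4.41, 6.50, 6.04 and 6.57 CPM in the Tg libraries, against 3.86, 3.37, 3.09 and 4.34 CPM in the NTg libraries. The lowest Tg library, replicate 1, lay just above the highest NTg library. The log2 fold change was 0.68 (SE 0.16, edgeR adjusted p = 0.169), and 0.80 without Tg replicate 1 (SE 0.13, edgeR adjusted p = 0.0208). Tlr9, the receptor for unmethylated CpG DNA, was at 1.75, 2.43, 2.48 and 2.54 CPM in Tg and 2.10, 0.985, 1.67 and 1.36 CPM in NTg. Here Tg replicate 1 lay among the NTg libraries, and the highest NTg value belonged to replicate 1, the library with B cell transcripts. B cells are known to express Tlr9, and their part in that value was not tested. Its log2 fold change was 0.59 (SE 0.23, edgeR adjusted p = 0.555), 0.70 without Tg replicate 1 (edgeR adjusted p = 0.280) and 0.78 without NTg replicate 1 (edgeR adjusted p = 0.292).

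Tlr3, the receptor for double-stranded RNA, was nearly level between the genotypes. Its libraries held 16.9, 21.5, 21.6 and 18.4 CPM in Tg, against 18.3, 17.7, 16.5 and 18.8 CPM in NTg, and the lowest Tg value lay inside the NTg range. The log2 fold change was 0.14 (SE 0.09; interval at a 95% level -0.06 to 0.33; edgeR adjusted p = 0.833). In the annotation used, 4.28% of the 75-base windows of Tlr3 transcripts also occur in an overlapping predicted gene, Gm45542. Tlr8, a relative of Tlr7 next to it on the X chromosome and known to respond weakly in the mouse, was near the detection floor. It had 14 to 19 counts per library in Tg and 6 to 16 in NTg, and its log2 fold change of 0.43 (SE 0.33, edgeR adjusted p = 0.885) was not separable from 0 at this depth.

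Among the surface receptors, Tlr2 was both the most abundant and the most clearly separated. It forms lipoprotein receptors by pairing with Tlr1 or Tlr6. Tlr2 measured 5.07, 9.72, 8.999 and 8.21 CPM in Tg, against 4.39, 3.53, 4.09 and 4.87 CPM in NTg, with no overlap. The log2 fold change was 0.92 (SE 0.19, 1.90-fold; edgeR adjusted p = 0.137), and 1.09 without Tg replicate 1 (SE 0.12, edgeR adjusted p = 0.00343). Tlr4, the receptor for lipopolysaccharide, was at 3.12, 4.54, 4.23 and 3.98 CPM in Tg and 2.49, 2.89, 2.83 and 3.33 CPM in NTg. Its genotypes overlapped in Tg replicate 1 alone, and the log2 fold change was 0.46 (SE 0.14, edgeR adjusted p = 0.362).

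The 2 partners of Tlr2 gave unlike values. Tlr1, which completes the receptor for triacylated lipoproteins, stood at 1.07, 1.73, 1.84 and 2.45 CPM in Tg, against 1.34, 0.572, 0.622 and 0.388 CPM in NTg. Its log2 fold change of 1.27 (SE 0.37, edgeR adjusted p = 0.324) had the largest size of the family, and NTg replicate 1 lay above Tg replicate 1. It was 1.45 without Tg replicate 1 (edgeR adjusted p = 0.121) and 1.74 without NTg replicate 1 (edgeR adjusted p = 0.113), so neither omission brought Tlr1 past the threshold. Leaving out both gave 1.92 (edgeR adjusted p = 0.00730) and 4 of 10 members called, beside 1.36% of all genes called higher. That comparison was chosen after the values were seen and removes exactly the libraries that overlapped for Tlr1, so it is given as a description alone. Tlr6, which completes the receptor for diacylated lipoproteins, ranged from 0.860 to 1.96 CPM in Tg and from 1.024 to 1.68 CPM in NTg. Its log2 fold change was 0.02 (SE 0.25; interval at a 95% level -0.53 to 0.57; edgeR adjusted p = 0.998), which leaves room for a sizeable difference in either direction. The ratio of Tlr1 to Tlr6, per kilobase, averaged 1.49 ± 0.448 in Tg and 0.667 ± 0.531 in NTg (SD, n = 4 each), and 1.46 in NTg replicate 1. The genes are neighbours on chromosome 5, and 340 of their 75-base transcript windows are identical in both (10.3% of Tlr1 and 9.25% of Tlr6), so part of their counts may be uncertain. Tlr5, the flagellin receptor, had 0.510 to 0.757 CPM in Tg and 0.476 to 0.711 CPM in NTg (log2 fold change -0.03, SE 0.20, edgeR adjusted p = 0.997).

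**Figure D2:**
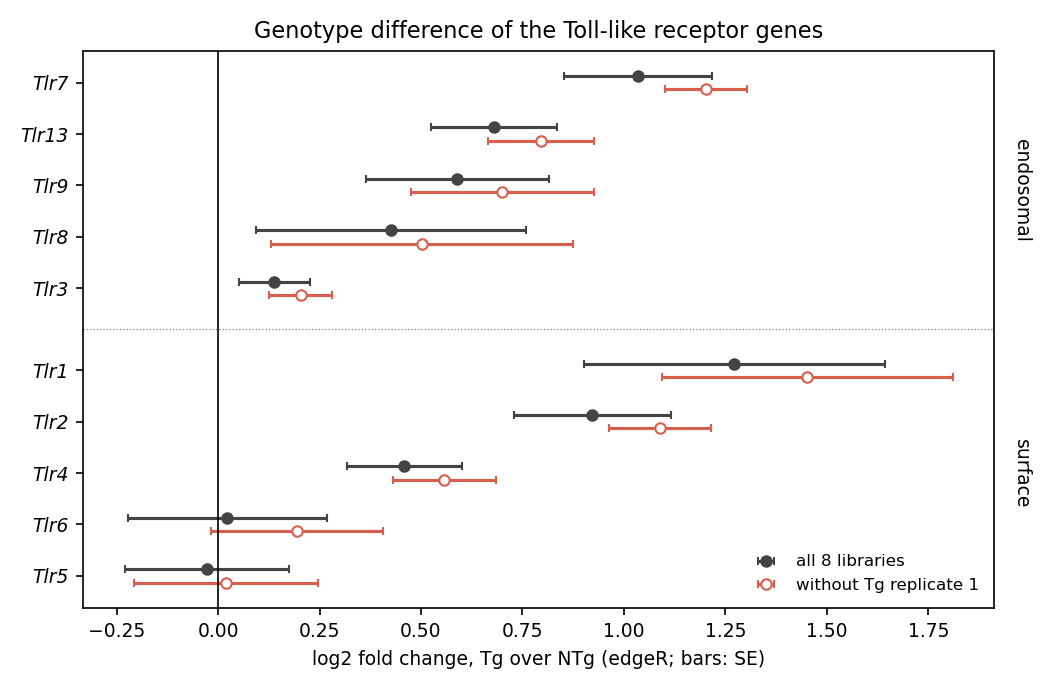
Log2 fold change of each member, Tg over NTg, with its SE, from all 8 libraries (filled grey) and without Tg replicate 1 (open red), for endosomal receptors above and surface receptors below. Both classes span values near 0 and values near 1, and every member's estimate is higher without Tg replicate 1.

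Endosomal and surface receptors overlapped in the size of their genotype differences. The median log2 fold change was 0.59 for the 5 endosomal members, which ranged from 0.14 (Tlr3) to 1.03 (Tlr7), and 0.46 for the 5 surface members, which ranged from -0.03 (Tlr5) to 1.27 (Tlr1). The difference of the medians, 0.13, was a description without a test, and it was 0.31 without NTg replicate 1 and -0.06 when Tlr5 and Tlr8 were dropped by a stricter filter. Summed over the 5 surface genes, the Tg libraries held 10.7, 18.4, 17.2 and 16.5 CPM and the NTg libraries 9.87, 9.25, 9.61 and 10.4 CPM. The 5 endosomal genes summed to 28.36, 38.97, 39.97 and 36.96 CPM in Tg and to 28.52, 25.90, 25.46 and 28.53 CPM in NTg. In this sum, which holds the abundant and nearly level Tlr3, Tg replicate 1 lay inside the NTg range. The 4 endosomal genes other than Tlr3 summed to 11.5, 17.5, 18.4 and 18.5 CPM in Tg and to 10.2, 8.25, 9.01 and 9.72 CPM in NTg. In the surface sum and the sum without Tlr3, Tg replicate 1 lay above the NTg libraries but close to them. Likeness across the 8 libraries did not follow the 2 classes, though it holds the genotype differences and so is not a separate observation. The closest pair by the root-mean-square distance of centred log2 CPM was Tlr2 and Tlr7 (0.17), one of each class, followed by Tlr2 and Tlr13 (0.18) and by Tlr4 and Tlr13 (0.19).

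By the same distance, neighbours were sought among tested genes with a symbol, without predicted or clone-type symbols. The genes most like Tlr7 over the 8 libraries were Adgre1 (0.09), Fcer1g (0.10), Cd86 (0.10), Ctss (0.10) and Hvcn1 (0.11). Those most like Tlr2 were Slc37a2 (0.10), Slc11a1 (0.11), Hvcn1 (0.12), Cd53 (0.12) and Cd84 (0.13). Adgre1, the macrophage antigen F4/80, averaged 16.9 CPM in Tg and 8.78 CPM in NTg, and Slc37a2, a sugar-phosphate transporter, averaged 8.57 CPM in Tg and 4.94 CPM in NTg. None of these 9 genes passed edgeR over all genes in the 8 libraries.

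Set against the summed microglial markers, the members differed in direction. Tlr7 amounted to 1.36, 1.497, 1.67 and 1.72% of that sum in Tg, against 1.14, 1.16, 1.22 and 1.32% in NTg, and it was the single member with every Tg library above every NTg library. Tlr2 made 1.36 to 1.77% in Tg and 1.11 to 1.72% in NTg, Tlr13 made 1.04 to 1.23% in Tg and 0.922 to 1.54% in NTg, and both ranges overlapped. Tlr9 was also alike, with 0.454 ± 0.0227% in Tg and 0.466 ± 0.111% in NTg (SD, n = 4 each). Tlr3 and Tlr5 lay lower in every Tg library than in every NTg library on this scale, Tlr3 at 3.47 to 4.52% in Tg and 4.91 to 6.66% in NTg, and Tlr5 at 0.0926 to 0.141% in Tg and 0.169 to 0.212% in NTg. The marker sum itself was higher in every Tg library (374 to 579 CPM in Tg, 282 to 366 CPM in NTg). A gene that is level in CPM, as Tlr3 and Tlr5 nearly were, therefore takes a lower share in Tg. These shares were not tested, and the markers themselves differ in their genotype difference. The shares were computed for the members alone, so how common such a separation is over all genes is not known.

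**Figure D3:**
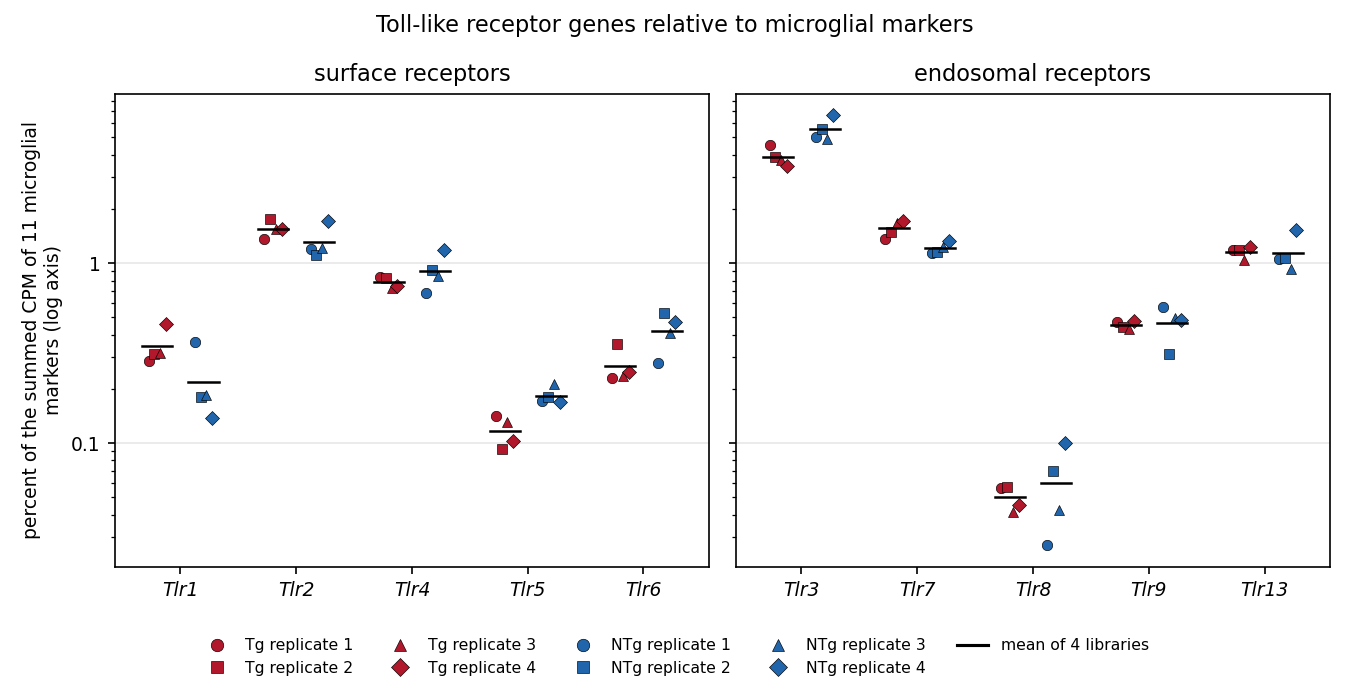
Each member's CPM as a percent of the summed CPM of 11 microglial markers (log axis) in Tg (red) and NTg (blue) libraries, with marker shapes for the replicate and a bar for the mean. The shares of Tlr7 are higher in Tg without overlap, those of Tlr3 and Tlr5 lower without overlap, and those of the other 7 members overlap.

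Promoter sequence was taken from RefSeq on GRCm38.p6, an older build than the one named for the counts, and 8 of the 10 members matched an entry (all but Tlr4 and Tlr7). In the 250 bases before each start, 3 motifs were searched on both strands. They were GAGGAA, the core bound by the myeloid factor PU.1, the interferon-stimulated response element, as 2 copies of GAAA with 2 bases of any kind between them, and the NF-kappaB consensus. GAGGAA occurs in 23.3% of 32851 such windows of all genes, the interferon element in 2.98% and the NF-kappaB consensus in 3.90%. Among the 10 windows of the 8 members, 4 held GAGGAA (Tlr1, Tlr8, Tlr9, Tlr13), 1 held the interferon element (Tlr6) and 2 held the NF-kappaB consensus (Tlr2, Tlr3). Tlr1 and Tlr6 each had another window, before a different start, that held none of the 3 motifs. Below are the windows of Tlr2 and Tlr13, whose genotypes did not overlap. For Tlr6, whose level was nearly the same in both genotypes, the window with the match is shown. Capitals mark the NF-kappaB consensus in Tlr2 (matches that overlap each other), GAGGAA in Tlr13 and the interferon element on the opposite strand in Tlr6 (again overlapping matches).
Tlr2, 250 bases upstream, GRCm38.p6 chr3:83841609-83841858, minus strand: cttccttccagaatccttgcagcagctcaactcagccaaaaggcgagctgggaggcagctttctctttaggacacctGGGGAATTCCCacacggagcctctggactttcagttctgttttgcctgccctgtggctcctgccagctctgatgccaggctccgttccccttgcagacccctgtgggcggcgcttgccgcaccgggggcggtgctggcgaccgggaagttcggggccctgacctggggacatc
Tlr13, 250 bases upstream, GRCm38.p6 chrX:106143025-106143274, plus strand: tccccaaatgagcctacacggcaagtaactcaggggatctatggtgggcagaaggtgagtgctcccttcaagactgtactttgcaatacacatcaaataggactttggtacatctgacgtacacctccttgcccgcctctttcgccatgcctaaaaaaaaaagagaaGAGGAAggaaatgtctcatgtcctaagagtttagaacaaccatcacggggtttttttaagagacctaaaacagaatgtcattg
Tlr6, 250 bases upstream, GRCm38.p6 chr5:64959167-64959416, minus strand: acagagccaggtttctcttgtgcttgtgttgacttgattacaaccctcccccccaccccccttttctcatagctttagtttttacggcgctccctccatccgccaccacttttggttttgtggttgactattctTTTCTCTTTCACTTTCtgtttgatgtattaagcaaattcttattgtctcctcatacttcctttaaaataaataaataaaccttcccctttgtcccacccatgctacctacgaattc
A match describes the letters of the window and shows neither binding nor a reason for a difference.

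Beyond the members, 88 genes of the pathway were examined in 9 lists, from co-receptors to target genes, and 79 were tested. Of these, 53 were higher and 26 lower in Tg, with a median log2 fold change of 0.08. Of the 79, edgeR called 1, Cxcl10, beside 0.0139% of all genes tested in either direction. The remaining 2 mouse receptors added little. Tlr12, a sensor of profilin, averaged 0.879 ± 0.232 CPM in Tg and 0.726 ± 0.191 CPM in NTg (SD, n = 4 each), and Tlr11 had 0 to 5 counts per library, too few to test.

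Among the 6 co-receptors, 5 were higher and 1 lower (median 0.70), 0 passed edgeR over all genes and 3 passed DESeq2, beside 1.33% of all genes tested that were higher by DESeq2. Cd180, a Toll-like surface protein of B cells and myeloid cells, averaged 5.91 ± 0.937 CPM in Tg and 2.65 ± 0.346 CPM in NTg (edgeR adjusted p = 0.0641, log2 fold change 1.16). Its partner Ly86 was at 26.9 ± 5.99 CPM in Tg and 13.1 ± 2.54 CPM in NTg, and Cd14, which hands lipopolysaccharide to Tlr4, at 7.08 ± 2.21 CPM in Tg and 3.41 ± 0.388 CPM in NTg. The genotypes of Cd180 and Ly86 did not overlap, whereas Cd14 overlapped in 1 Tg library. Without Tg replicate 1, the lowest Tg library for all 3, edgeR adjusted p-values were 0.00343 for Cd180, 0.00320 for Ly86 and 0.00157 for Cd14. In that comparison 1.26% of all genes were called higher. Cd180 also passed without NTg replicate 1 (edgeR adjusted p = 0.0330), where Ly86 (edgeR adjusted p = 0.0994) and Cd14 (edgeR adjusted p = 0.245) did not. The single lower gene, Lbp, a serum protein that binds lipopolysaccharide, averaged 3.68 ± 0.880 CPM in Tg and 5.67 ± 1.46 CPM in NTg (edgeR adjusted p = 0.525), and was named after its values were seen.

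Of 10 genes for folding, transport and cleavage of the receptors, 7 were higher and 3 lower (median 0.29). In the 8 libraries 0 passed edgeR and 6 passed DESeq2 as higher, beside 1.33% of all genes tested that were higher by DESeq2. Unc93b1, the chaperone that carries nucleic-acid receptors to endosomes, averaged 22.8 ± 4.48 CPM in Tg and 14.6 ± 2.15 CPM in NTg (log2 fold change 0.64, SE 0.15, edgeR adjusted p = 0.188), and was named after its values were seen. Slc15a3, an endolysosomal peptide transporter, was at 6.78 ± 1.67 CPM in Tg and 3.00 ± 0.430 CPM in NTg (log2 fold change 1.17, SE 0.20, edgeR adjusted p = 0.107). The proteases Ctss (188 ± 34.6 CPM in Tg, 98.9 ± 12.1 CPM in NTg), Ctsl (126 ± 11.8 CPM in Tg, 97.05 ± 2.86 CPM in NTg) and Ctsb (824 ± 90.8 CPM in Tg, 632 ± 28.6 CPM in NTg) cut endosomal receptors into their active form. In the whole list, 5 of 10 genes lay higher in every Tg library than in every NTg library, beside 2.62% of all genes tested, while the protease Ctsk had a log2 fold change of -0.01. Without Tg replicate 1, 6 of the 10 passed edgeR, beside 1.26% of all genes called higher in that comparison. Their edgeR adjusted p-values were 0.00756 for Unc93b1, 0.00138 for Slc15a3, 0.000809 for Ctss, 0.00212 for Ctsl, 0.00343 for Ctsb and 0.0425 for the protease Lgmn. For all 6, the library left out was the lowest Tg library. Ctsk and Lgmn were named after their values were seen. The broad chaperone Hsp90b1 was at 243 ± 40.8 CPM in Tg and 260 ± 14.0 CPM in NTg.

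The lists downstream of the receptors, adaptors, kinases, transcription factors and inhibitors, had medians of -0.02 to 0.22. Of the 6 adaptors 4 were higher (median 0.22). Myd88, used by nearly all members, averaged 4.53 ± 0.478 CPM in Tg and 3.86 ± 0.451 CPM in NTg (log2 fold change 0.23, SE 0.12, edgeR adjusted p = 0.752), Ticam2 1.05 CPM in Tg and 0.727 CPM in NTg, Pik3ap1 7.27 CPM in Tg and 5.17 CPM in NTg, and Sarm1, also made by neurons, 26.4 CPM in Tg and 26.5 CPM in NTg. The 17 kinases and ubiquitin ligases had a median of 0.0071, with Irak4 at 3.25 CPM in Tg and 2.44 CPM in NTg, Ripk1 at 7.47 CPM in Tg and 6.39 CPM in NTg, and Traf3 at 55.1 CPM in Tg and 60.4 CPM in NTg. Tab2 (75.3 CPM in Tg, 75.6 CPM in NTg) and Ube2n (189.9 CPM in Tg, 191.9 CPM in NTg) were level. Of 9 transcription factors 8 were higher (median 0.14), and 1 of them, the myeloid factor Irf8, passed DESeq2, beside 1.33% of all genes tested that were higher by DESeq2. Irf8 was at 10.6 ± 2.16 CPM in Tg and 6.27 ± 0.965 CPM in NTg. Its lowest Tg library (7.39 CPM) lay below its highest NTg library (7.55 CPM). Irf5, which acts below Tlr7 and Tlr9, averaged 5.84 ± 1.10 CPM in Tg and 3.91 ± 0.814 CPM in NTg (edgeR adjusted p = 0.365). The NF-kappaB subunits Nfkb1 (22.0 CPM in Tg, 21.9 CPM in NTg), Rela (20.8 CPM in Tg, 18.96 CPM in NTg) and Nfkb2 (4.25 CPM in Tg, 3.74 CPM in NTg) were not called. Among the 10 tested inhibitors (median -0.02), Nfkbia stood at 15.8 CPM in Tg and 13.9 CPM in NTg, Tollip at 146 CPM in Tg and 150.5 CPM in NTg, Cyld at 153 CPM in Tg and 162 CPM in NTg, and Rnf216 at 44.7 CPM in Tg and 46.9 CPM in NTg. Across these lists edgeR called 0 genes in the 8 libraries, and without Tg replicate 1 it called Irf8 (adjusted p = 0.00687) and Pik3ap1, an adaptor to phosphoinositide kinase (adjusted p = 0.0293). That library was the lowest Tg library for both, and 1.26% of all genes were called higher without it.

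Target genes were low but mostly higher in Tg. Of 18 genes induced by Toll-like receptors, 12 were tested and 11 of these were higher (median 0.57). DESeq2 placed 4 higher at an adjusted p of 0.05, beside 1.33% of all genes tested, and edgeR called 1 as higher, beside 0.00926%. That gene was Cxcl10, a chemokine that interferon also induces, with 4.22 ± 1.14 CPM in Tg and 0.485 ± 0.121 CPM in NTg (SD, n = 4 each; log2 fold change 3.11, SE 0.24, edgeR adjusted p = 0.00146). The chemokines Ccl4 (1.44 ± 0.398 CPM in Tg, 0.538 ± 0.129 CPM in NTg) and Ccl3 (1.28 ± 0.492 CPM in Tg, 0.455 ± 0.1297 CPM in NTg) had edgeR adjusted p-values of 0.107 and 0.169. Their edgeR adjusted p-values without Tg replicate 1, the lowest Tg library for both, were 0.00666 and 0.00554. In that comparison 1.26% of all genes were called higher. Nfkbiz, an NF-kappaB cofactor, was at 5.49 CPM in Tg and 4.92 CPM in NTg, and Ptgs2, also made by neurons, at 8.66 CPM in Tg and 10.1 CPM in NTg. The 6 genes with too few counts to test were Tnf, Il6, Il12b, Cxcl1, Cxcl2 and Ifnb1, the last with 0 counts in every library. Of 8 tested genes for endogenous ligands 6 were lower (median -0.13) and 0 were called, with Hmgb1 at 181 CPM in Tg and 192 CPM in NTg, Fn1 at 35.9 CPM in Tg and 42.9 CPM in NTg, and Tnc at 6.30 CPM in Tg and 7.39 CPM in NTg.

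**Figure D4:**
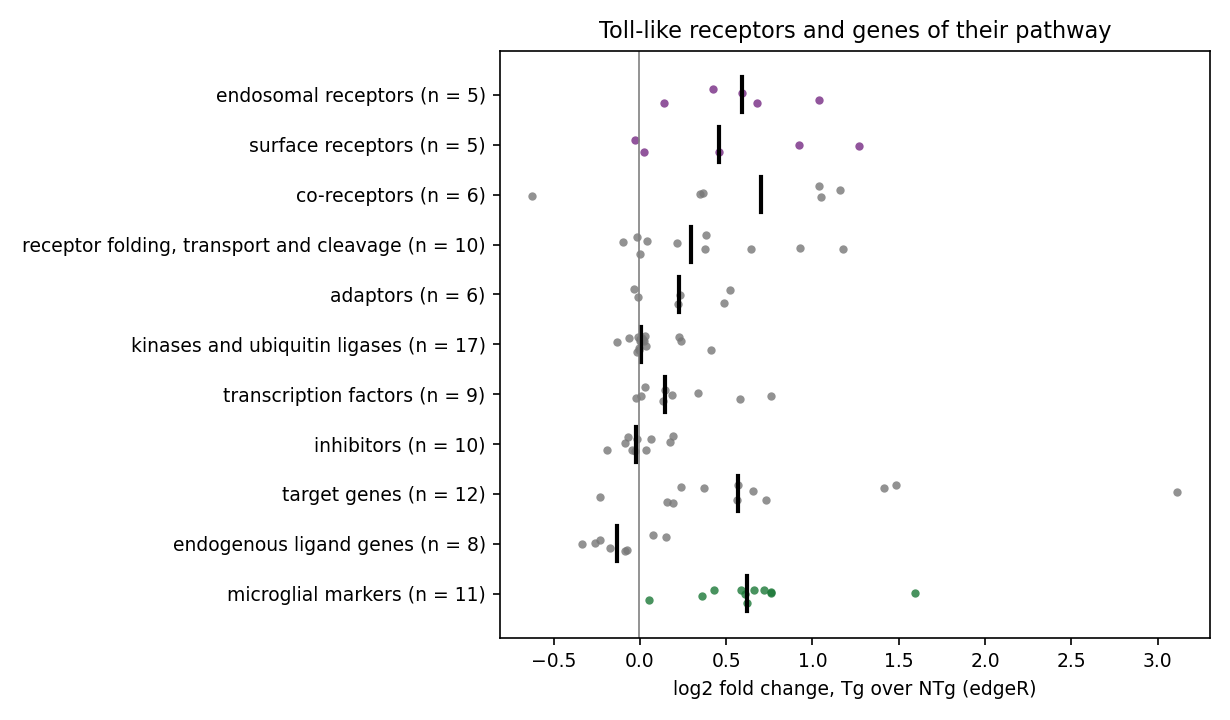
Log2 fold change, Tg over NTg, of each tested gene in the receptor classes (purple), the pathway lists (grey) and the microglial markers (green), with a black bar at each list's median and a grey line at the median of all genes tested. Receptors, co-receptors, target genes and microglial markers have medians of 0.46 to 0.70, while kinases and inhibitors lie around 0.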

How the data were processed

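The authors deposited raw read counts per Ensembl gene for 8 libraries, without normalization. The labels' protocols name Illumina's TruSeq RNA chemistry (version 2, an unstranded kit) and paired 75-base reads. GRCm39, STAR and DESeq2 appear in the submitters' processing notes, while the sources used here name neither a counter nor an annotation release, nor any software version. 0 columns belonged to other series and 0 rows lacked an identifier. Symbols were matched by Ensembl identifier for 52073 genes holding 99.6% of the counts. Exon lengths, overlaps and shared 75-base windows came from GENCODE M21 on an older build.

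Genes kept by filterByExpr (minimum count 10, minimum total 15) were scaled with TMM factors and tested in all 8 libraries with edgeR 4.0.16 (R 4.3.3), quasi-likelihood, with Benjamini-Hochberg adjustment over all 21588 genes. DESeq2 1.42.0 and limma 3.58.1 were run on the same genes. The fit was tested on simulated counts. CPM used TMM-scaled totals, the SE is the log2 fold change divided by the square root of F, and likeness used log2 CPM with a prior count of 2. No 2 libraries of a genotype agreed within sampling noise (the lowest chi-square, divided by its degrees of freedom, was 10.1). Members, lists and tests were chosen with earlier results of these data known. Named genes were App, all members, the 3 smallest p and 2 most abundant genes plus any called gene of each pathway list, and 5 neighbours in pattern for each of the 2 members with the smallest p. Genes without a symbol, or with a predicted or clone-type symbol, were left out of the search for neighbours. Alternatives planned were other tools, scalings, filters, a replicate block and each library left out. Leaving out replicate 1 of both genotypes was chosen after seeing the data. 1 marker of the B cell list, and the sum that holds it, is not reported here.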

Additional observations from a re-analysis of the deposited data

Results flagged for a closer look

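Across 45 genes examined in both genotypes, 8 of 90 groups of 4 libraries had 1 library set apart from the other 3 by a Dixon test, where chance gives about 1 in 20. Among the members, Tlr9 stood low in Tg replicate 1, at 1.75 CPM, where the remaining Tg values were 2.43 to 2.54 CPM. Tlr5 stood high in Tg replicate 3, at 0.757 CPM, where the remaining Tg values were 0.510 to 0.549 CPM. Tg replicate 1 was also the low library for App, with 2532 CPM against 2934 to 2980 CPM, and for Slc15a3, with 4.27 CPM against 7.55 to 7.72 CPM. The same library was low for Ctsb, with 688 CPM against 866 to 874 CPM, and for Irf8, with 7.39 CPM against 11.4 to 12.0 CPM. In NTg, Hsp90b1 was at 239 CPM in replicate 1 and 266 to 269 CPM in the others, and Traf3 at 66.5 CPM in replicate 3 and 57.4 to 58.9 CPM in the others.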

How the results depend on the processing

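Each member except Tlr5 and Tlr6 kept its direction under all settings that tested it, and no scaling moved the median of all genes by more than 0.03 on the log2 scale. DESeq2 called 352 genes, 3 members and 17 pathway genes (members included), and edgeR without a filter on low counts called 127, 2 (Tlr2 and Tlr7) and 10. Robust dispersion called 2 pathway genes, and limma-voom called 3 genes and 0 members. With the replicate number as a block, edgeR called 1 gene and 0 pathway genes, and App (0.94) had an adjusted p of 0.0838 and Cxcl10 of 0.0775. Same-numbered libraries did not deviate together (correlations of -0.032 to 0.16, with 3 of 8 libraries closest to their own number), so the numbers were not taken as pairs. Leaving out 1 library gave 3 to 314 genes, 0 to 3 members and 1 to 17 pathway genes, the highest each without Tg replicate 1, and 9 genes without Tg replicate 2 and 16 without NTg replicate 1. App stayed at 0.91 to 0.99, and the endosomal minus surface median at 0.066 to 0.31. Without replicate 1 of both genotypes, 318 genes, 4 members and 20 pathway genes were called and that median was 0.33. It was -0.056 with at least 1 CPM in 4 libraries, which left 8 members. Sign changes concerned log2 fold changes near 0. Tlr6 turned to -0.023 with limma-voom and -0.0047 with the replicate block, and spanned -0.20 to 0.19 with 1 library left out, negative without Tg replicate 2 or NTg replicate 1. Tlr5 spanned -0.17 to 0.065 with 1 library left out and was 0.046 without replicate 1 of both genotypes. Sarm1 was 0.016 with library totals alone, 0.039 without replicate 1 of both genotypes and -0.071 to 0.025 with 1 library left out. Tab2 was 1.8e-06 with upper-quartile factors, 0.019 with library totals alone and -0.028 to 0.019 with 1 library left out. Ube2n was 0.0094 with library totals alone and -0.049 to 0.0064 with 1 library left out. Nfkb1 was -0.013 to 0.021 with 1 library left out. The cause of these changes was not tested. With 6 to 19 counts per library for Tlr8 and 27 to 44 for Tlr5, depth limits both.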
